A study of Mus musculus with 10 samples.

Results

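Transcripts of 33 genes, targets of the hypoxia-inducible factors (HIF) and enzymes of glycolysis, were followed across 10 RNA-seq libraries of cultured mouse mammary epithelial cells. The genes were taken by symbol from the 53167 listed in the count table, and all 33 were found and passed the filter on low counts, as did 14415 genes in all. The symbols follow textbook pathway membership, but the list was drawn up with earlier results of these data in view, in which glycolysis and hypoxia genes were low in 1 library. Levels of the members in that library, and between the groups, are therefore given as description.

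The cells were wild-type primary epithelial cells from mouse mammary gland, grown in DMEM with serum and antibiotics. Biglycan is a proteoglycan that cells secrete into the matrix around them, and 5 samples, called BGN, were given the protein at 100 ng/mL. Another 5 samples, called Control, had no biglycan added and were otherwise described alike. The labels give no strain, age, oxygen tension, cell density or time of stimulation, and they do not name the animal or culture behind each replicate. A p-value here measures only how these samples spread, and that spread may be technical.

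HIF is the transcription factor by which cells respond to low oxygen. In normal oxygen, prolyl hydroxylases encoded by the Egln genes mark its alpha subunits for the VHL ubiquitin ligase, and the subunits are degraded. When oxygen is scarce the alpha subunits persist, pair with ARNT and bind DNA at hypoxia response elements with the core letters ACGTG or GCGTG. Targets include glucose carriers, most glycolytic enzymes, the angiogenic factor VEGF-A and the mitophagy receptors BNIP3 and BNIP3L. Glucose also supplies the lactating mammary gland with precursors for milk sugar and fat.

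Between 18292624 and 21820560 reads were counted per library. The deepest was BGN replicate 5, and Control replicate 2 followed at 21161486. Epithelial markers dominated over those of other cells: 7 luminal markers summed to 4686 to 5239 CPM (counts per 1000000 counted reads) and 6 basal markers to 5360 to 6624 CPM. Sums for 8 fibroblast, 5 endothelial, 6 myeloid, 4 adipocyte and 5 red blood cell genes reached at most 59.3, 6.07, 4.25, 0.345 and 0.403 CPM in any library, and 1 endothelial, 1 myeloid and 3 red blood cell genes had no count in any library. BGN replicate 5 had the lowest luminal sum, 4686 CPM. Within Control the lowest luminal sum was in Control replicate 2, 4915 CPM, and Control replicate 4 had 4995 CPM. Basal sums were the lowest of their groups in BGN replicate 5, 5421 CPM, and Control replicate 4, 5360 CPM, as were myeloid sums at 2.29 and 2.17 CPM. Reads on mitochondrially encoded genes made up 2.18% in BGN replicate 5, within the range of the other 4 BGN libraries. Control replicate 4 had the highest share of all libraries, 2.27%, and Control replicate 5 the lowest, 1.16%. The part of depth and of these markers in the levels of the members was not tested. In bulk RNA, fewer cells of a type and less RNA per cell cannot be told apart.

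The members moved together across libraries in an order that did not follow the groups. Averaged over the 33 genes, log2 CPM relative to each gene's own mean was -0.81 in BGN replicate 5 and -0.29 in Control replicate 4. At the other end, Control replicate 2 stood at 0.34 and BGN replicate 3 at 0.27. The remaining 6 libraries lay between -0.019 in BGN replicate 4 and 0.18 in Control replicate 3. Each end of the range thus held 1 library of each group. By group, the deviation was -0.073 ± 0.43 in BGN and 0.073 ± 0.23 in Control (SD over 5 libraries, as in every group value).

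Every one of the 33 members had its lowest level in BGN replicate 5, where 12.3% of the 14415 genes tested had theirs. With that library set aside, 30 of 33 were lowest in Control replicate 4, where 11.1% of all genes were. Both held for the same 30 members and for 3.6% of all genes. Control replicate 2 held the highest level of 19 members, against 9.15% of all genes, and Control replicate 2 or BGN replicate 3 that of 26, against 18.4%. Nothing is read from these counts, since the low level of BGN replicate 5 was known when the list was made. The shortfall in that library, relative to the median of the other 9, ranged from 1.26-fold for Pkm to 4.64-fold for Adm, with a median of 1.76-fold. It was at least 1.5-fold for 25 members and at least 2-fold for 9, against 3.27% and 0.992% of all genes.

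**Figure D1:**
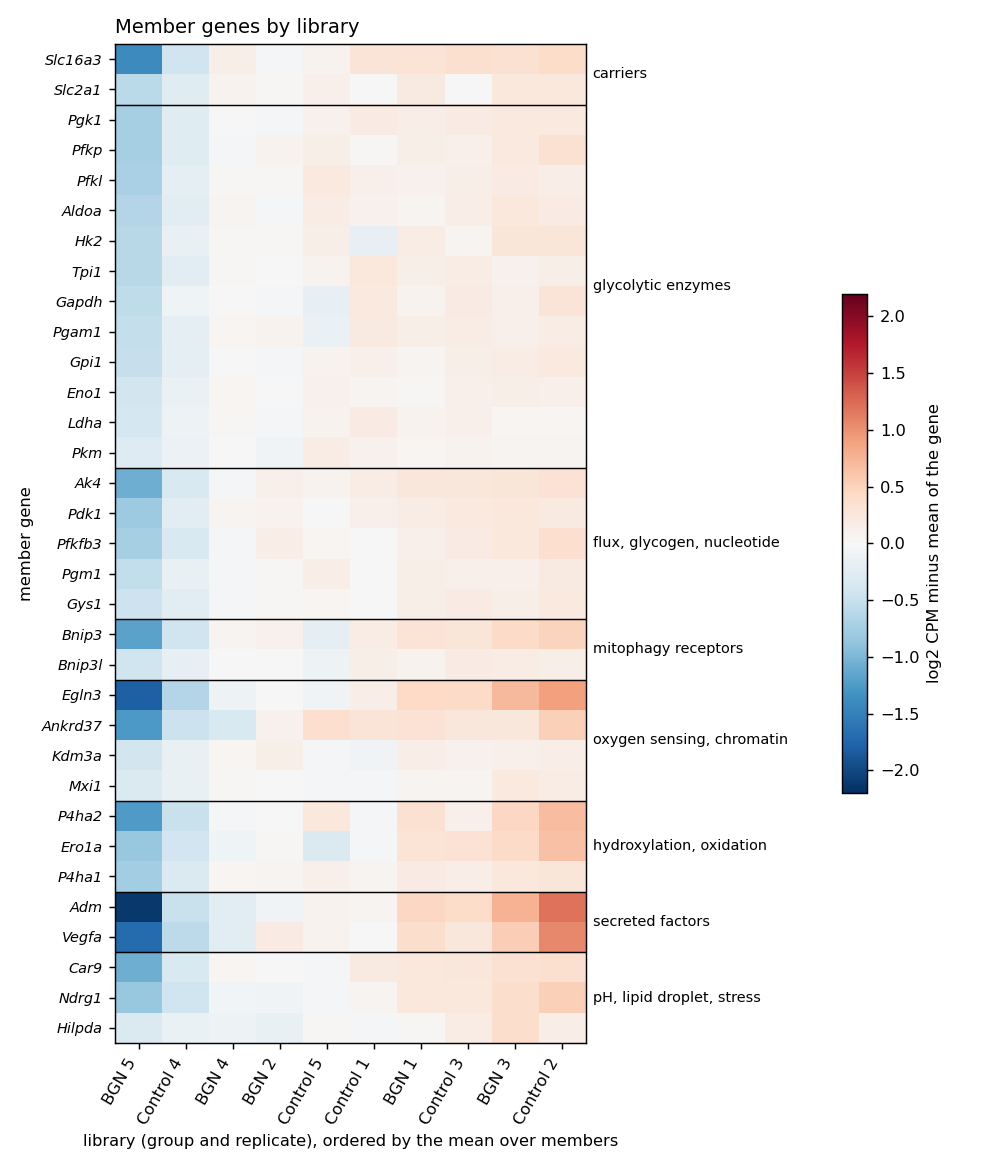
Log2 CPM of each of the 33 members minus that gene's mean over 10 libraries (colour, log2 units), with libraries ordered by the mean over members and genes grouped by role. BGN replicate 5 is the lowest library in all 33 rows, and secreted factors and Egln3 span a wider range than glycolytic enzymes such as Pkm and Ldha.

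Members also varied among the other 9 libraries. The SD of log2 CPM over those 9 had a median of 0.160 over the members and 0.114 over all genes tested, and it was above the latter for 27 of 33. Adm had the widest spread, an SD of 0.524, followed by Egln3 at 0.473 and Vegfa at 0.468. Ldha, Eno1 and Pkm had the narrowest, at 0.0851, 0.0895 and 0.0905. Adm, Egln3 and Vegfa were also the 3 members farthest down in BGN replicate 5.

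Secreted factors covered the widest range. Vegfa, the main angiogenic growth factor, stood at 279, 242, 310.0, 181 and 65.7 CPM in BGN replicates 1 to 5 and at 210.4, 444, 254, 142 and 224 CPM in Control replicates 1 to 5 (CPM here and below scaled with TMM factors). Its highest library, Control replicate 2, was 6.75-fold above its lowest, BGN replicate 5, and the groups overlapped. Adm encodes adrenomedullin, a vasodilator peptide. It was measured at 17.3, 11.8, 21.4, 10.6 and 2.78 CPM across the BGN libraries and 13.0, 28.8, 16.5, 8.85 and 13.3 CPM across Control, a 10.4-fold range between the same extremes. For both genes BGN replicate 3 was the second highest library of the 10 and Control replicate 4 the second lowest.

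Oxygen sensing genes differed in how far they ranged. Egln3, a HIF prolyl hydroxylase that is itself a HIF target, had 253, 185, 303, 173 and 53.3 CPM in BGN replicates 1 to 5 and 207, 348, 248, 119 and 177 CPM in Control replicates 1 to 5. BGN replicate 5 was 3.87-fold below the median of the other 9, and Control replicate 4 was the next lowest, so that the groups overlapped. Ankrd37, an ankyrin repeat gene often used as a hypoxia marker, was scarce, at 2.73 CPM in that library and 4.81 to 9.78 CPM in the others. Kdm3a, a histone H3 lysine demethylase, and Mxi1, a MYC antagonist, stayed closer together. Kdm3a was at 111 CPM against 132 to 162 CPM, and Mxi1 at 87.0 against 97.3 to 127 CPM.

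**Figure D2:**
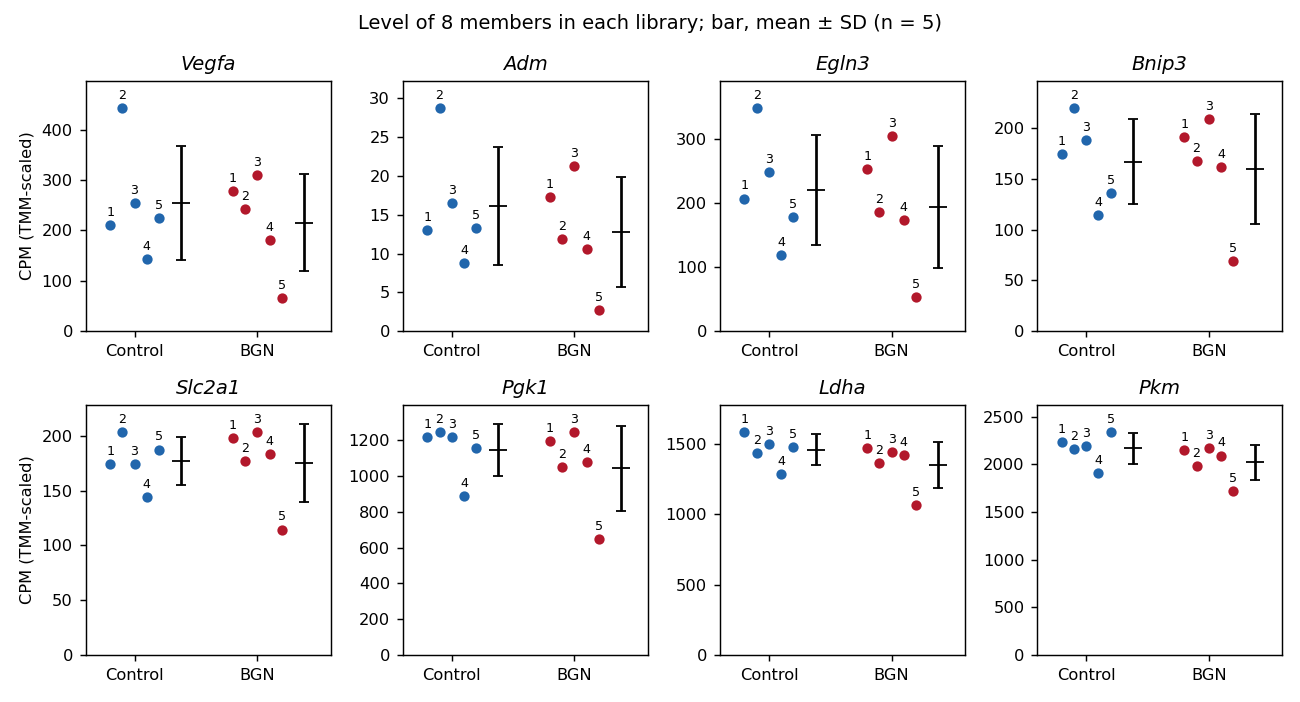
CPM of 8 members in each Control and BGN library (points, numbered by replicate) with the group mean and SD (n = 5). The groups overlap for all 8 genes, BGN replicate 5 is the lowest point in each, and the range narrows from Adm, at 2.78 to 28.8 CPM, to Pkm, at 1717 to 2344 CPM.

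The hypoxia response element core occurred close to the start of several members, and the stretches around it are shown for some of them. Members without a match, such as Pkm at its 5′-most start, are not shown. They come from RefSeq (build GRCm38.p6, not the build of the counts), from the 250 bases upstream of the 5′-most listed start, read 5′ to 3′ on the gene's strand. Capitals mark ACGTG or GCGTG on either strand, so that CACGT and CACGC are the same letters on the opposite strand. The first 4 genes were each at least 2-fold down in BGN replicate 5. The last 2 are abundant glycolytic enzymes, Ldha down 1.35-fold there and Pgk1 1.85-fold.
Adm: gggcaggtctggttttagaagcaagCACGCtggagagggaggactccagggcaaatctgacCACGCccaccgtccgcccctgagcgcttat
Egln3: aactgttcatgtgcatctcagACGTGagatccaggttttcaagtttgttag
Slc16a3: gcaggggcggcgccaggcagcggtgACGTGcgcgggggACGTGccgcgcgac
Bnip3: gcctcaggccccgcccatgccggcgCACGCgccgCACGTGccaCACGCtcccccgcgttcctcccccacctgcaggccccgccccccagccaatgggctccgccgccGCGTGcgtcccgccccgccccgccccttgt
Ldha: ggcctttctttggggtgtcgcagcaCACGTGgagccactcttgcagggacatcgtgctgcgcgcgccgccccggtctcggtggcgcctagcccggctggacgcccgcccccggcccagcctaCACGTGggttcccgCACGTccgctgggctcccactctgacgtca
Pgk1: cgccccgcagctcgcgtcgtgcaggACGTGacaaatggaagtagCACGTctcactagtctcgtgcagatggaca
These lie at chr7:110627542-110627632 (+ strand) for Adm, chr12:54204074-54204124 (- strand) for Egln3, chr11:120949015-120949066 (+ strand) for Slc16a3, chr7:138909512-138909648 (- strand) for Bnip3, chr7:46845634-46845799 (+ strand) for Ldha and chrX:106186925-106186998 (+ strand) for Pgk1. In Bnip3 and Ldha the letters CACGTG, which read the same on both strands, give overlapping matches. The window of the 5′-most Vegfa start held no match, which says only that these letters are absent from it.

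Promoter windows, 250 bases before to 50 after a start, were listed for 31 of 33 members, all but Ndrg1 and Bnip3l. At the 5′-most start, 24 of 31 (77.4%) held ACGTG or GCGTG, against 63.3% of 10527 tested genes in the same table and 43.8% of all 27025. ACGTG alone was in 16 of 31 (51.6%), against 25.5% and 19.6%. With any listed start counted, 28 of 31 (90.3%) held ACGTG or GCGTG, against 67.4% of tested genes. The 31 members had 48 windows and all 27025 genes 32851, and more windows per gene give more chances of a match. The upstream 250 bases had a median GC content of 62.8% in member windows and 59.6% in windows of tested genes. The list was made up largely of known HIF targets, so these shares describe the list and not the libraries, and a match is not a measured site.

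Glucose entry and lactate exit showed unequal ranges. Slc2a1, the glucose carrier GLUT1, had 198, 177, 204, 183 and 115 CPM in BGN replicates 1 to 5 and 174, 203, 175, 144 and 188 CPM in Control replicates 1 to 5. Slc16a3, the lactate exporter MCT4, had 65.5, 51.4, 67.0, 57.7 and 20.1 CPM and 64.9, 70.3, 67.5, 39.1 and 55.9 CPM in the same order. BGN replicate 5 was 3.21-fold below the median of the other 9 for Slc16a3 and 1.60-fold for Slc2a1. The other 4 BGN libraries lay inside the Control range for Slc16a3, and for Slc2a1 BGN replicate 3 stood just above it.

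The 12 glycolytic enzymes had a mean deviation of -0.56 in BGN replicate 5, -0.19 in Control replicate 4 and 0.18 in Control replicate 2. Together with the other members they held 0.812% of all counts in BGN replicate 5 and 1.01% to 1.37% in the other libraries. The 12 enzymes alone held 0.659% there and 0.803% to 1.00% elsewhere. Pkm, which encodes pyruvate kinase, had the highest level per exon length among 31 members with a known length, 806 CPM per kb on average. Ldha, Pgk1 and Eno1 followed, whereas Hk2, also 1 of the 12, had the lowest, 4.64 CPM per kb. Aldoa, at a mean of 1205 CPM, and Pgm1 had no known length and are not ranked. Ldha, which makes lactate from pyruvate, had 1468, 1365, 1442, 1418 and 1067 CPM in BGN and 1587, 1434, 1501, 1287 and 1474 CPM in Control, with its highest library in Control and overlapping groups. Pgk1, the phosphoglycerate kinase gene, had 1195, 1053, 1245, 1077 and 646 CPM and 1219, 1249.8, 1222, 891 and 1155 CPM in the same order, where only BGN replicate 5 and Control replicate 4 stood clear of the rest. The shortfall in BGN replicate 5 was 1.85-fold for Pgk1, the farthest of the 12, and 1.35-fold for Ldha.

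Among the other 10 enzymes the shortfall ran from 1.26-fold to 1.80-fold. Hk2, which phosphorylates glucose, was 1.60-fold below the median of the other 9, at 16.8 CPM against 22.6 to 31.0 CPM. The phosphofructokinase genes Pfkl and Pfkp were 1.76-fold and 1.80-fold below, and the aldolase gene Aldoa 1.69-fold. Tpi1, Pgam1 and Gapdh lay 1.63-, 1.55- and 1.55-fold below, and the isomerase gene Gpi1 1.503-fold, at 262 CPM against 321 to 436 CPM. The late steps Eno1 and Pkm were only 1.39- and 1.26-fold below. Gapdh, usually among the most abundant transcripts, was counted at only 133 to 183 CPM in those 9 libraries. It has many near-identical pseudogenes, as several of these enzymes do. The 3 listed copies of Gapdh had mean counts of 16.4, against 2981 for the gene. Whether reads were left out or split was not tested, and the level is uncertain.

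Genes that direct pyruvate, glycogen and adenylate were low in the same library. Pdk1, the kinase that shuts off pyruvate dehydrogenase, had 218, 207, 228, 205 and 112 CPM in BGN replicates 1 to 5 and 212, 224, 227, 165 and 193 CPM in Control replicates 1 to 5. BGN replicate 5 and Control replicate 4 were the lowest, and the remaining libraries of both groups overlapped. Ak4, a mitochondrial adenylate kinase, was 2.35-fold below the other libraries' median, at 36.8 CPM against 61.1 to 96.1 CPM. Pfkfb3, which makes the activator of phosphofructokinase, was 1.79-fold below, and the glycogen synthase gene Gys1 1.41-fold. Pgm1, listed as a phosphoglucomutase gene, was 1.57-fold below. The symbols Pgm1 and Pgm2 have been exchanged between annotation releases, so which gene this row counts is uncertain.

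Of the mitophagy receptors, Bnip3 ranged more widely than Bnip3l. Bnip3 had 191, 167, 208, 161 and 68.7 CPM in BGN and 174, 219.8, 188, 114 and 136 CPM in Control, with Control replicate 2 the highest and the groups overlapping. Bnip3l was at 222 CPM in BGN replicate 5 and 267 to 341 CPM elsewhere, 1.44-fold below the median against 2.54-fold for Bnip3. The collagen prolyl hydroxylase subunit genes differed likewise: P4ha2 was at 7.66 CPM against 13.1 to 29.3 CPM (2.58-fold), and P4ha1 at 62.4 against 85.3 to 127 CPM (1.83-fold). Ero1a, an oxidase of the endoplasmic reticulum that serves disulfide formation, was at 123 against 165 to 343 CPM.

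Car9 encodes carbonic anhydrase IX, a cell surface enzyme that helps cells remove acid. Its levels were 90.5, 77.5, 97.2, 78.7 and 36.4 CPM in BGN replicates 1 to 5. In Control replicates 1 to 5 they were 88.0, 98.3, 91.0, 60.8 and 75.2 CPM. The transcript was counted in all 10 libraries, and the groups overlapped. Ndrg1, a stress-induced gene, was at 180.0 CPM in BGN replicate 5 and 238 to 461 CPM elsewhere. Hilpda, a lipid droplet protein gene, was scarce at 6.84 and 7.61 to 11.2 CPM, and its distance to the next library was 0.15 on the log2 scale.

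Within enzyme families, the isozyme on the list was not always the abundant one, and some relatives outside the list stood within their range in BGN replicate 5. On the scale of CPM per kb of exon, Hk1 had a median of 49.0 over the 9 libraries other than BGN replicate 5 and Hk2 only 4.79. In BGN replicate 5, Hk1 was 1.16-fold and Hk2 1.60-fold below those medians. Ldha, at a median of 761 CPM per kb, exceeded Ldhb at 25.5. Ldhb, the form suited to lactate use, was 33.2 CPM per kb in BGN replicate 5, within the 21.9 to 33.7 of the others. The lactate carrier Slc16a1 (MCT1) had a median of 24.0 CPM per kb and was 1.19-fold lower in that library, against 3.21-fold for Slc16a3. Differences between isozymes in this shortfall were not tested.

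Among pyruvate dehydrogenase kinases, Pdk1 led with a median of 40.8 CPM per kb, ahead of Pdk3 at 22.3, Pdk2 at 18.8 and Pdk4 at 9.80. Pdk2 and Pdk3 were at 18.9 and 24.2 CPM per kb in BGN replicate 5, inside their ranges elsewhere, whereas Pdk4 was 2.12-fold below its median. Of the HIF prolyl hydroxylases, Egln3 had a median of 77.6, Egln1 of 40.2 and Egln2 of 19.6 CPM per kb. Egln1 was 1.60-fold below its median in BGN replicate 5, and Egln2 lay within its range, at 20.2 CPM per kb. Hif1a and Epas1, which encode the HIF alpha subunits, were at 44.6 and 12.4 CPM per kb there, within 42.2 to 52.3 and 12.1 to 14.4 in the other 9 libraries.

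**Figure D3:**
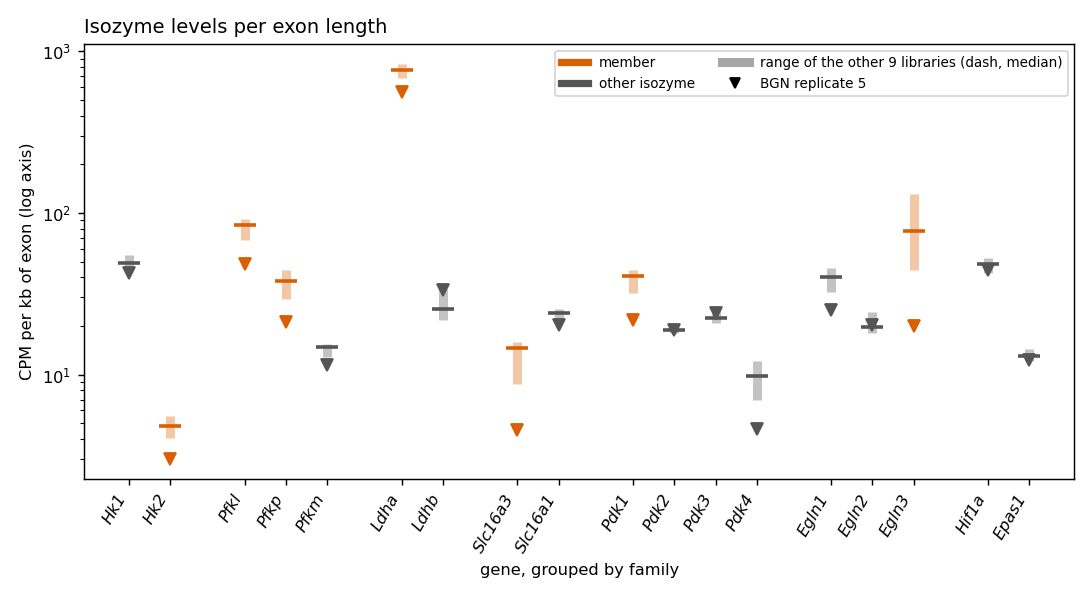
CPM per kb of exon (log axis) for genes of 7 gene families, with the range and median of the 9 libraries other than BGN replicate 5 (bar and dash) and BGN replicate 5 (triangle). Orange genes are on the list and their triangles lie under the bars. Among genes outside the list, the triangles of Hk1, Pfkm, Slc16a1, Pdk4 and Egln1 also lie under the bars. Those of Ldhb, Pdk2, Pdk3, Egln2, Hif1a and Epas1 lie within them.

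Between BGN and Control, no member differed beyond the spread of the libraries. None of the 33 passed an adjusted p of 0.05 in the edgeR quasi-likelihood test, and none had an unadjusted p under 0.05; the adjusted p ran from 0.945 to 0.996. Over all 14415 genes 0 passed (0%), with 694 at an unadjusted p under 0.05, and DESeq2 also called 0, with 662. The groups overlapped for all 33 members, and did not for 0.728% of all genes. Estimates were below 0 for 31 of 33 members and for 52% of all genes, with medians of -0.11 and -0.00403 on the log2 scale (BGN over Control). This direction was among the results known when the list was made.

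The estimates depended on single libraries. Vegfa averaged 215 ± 96.5 CPM in BGN and 255 ± 113 CPM in Control: its log2 fold change was -0.25 ± 0.44 (SE) with all libraries and -0.013 without BGN replicate 5. Egln3, with means of 193 ± 94.5 CPM under BGN and 219.7 ± 85.8 CPM under Control, moved from -0.19 ± 0.45 to 0.056. For Bnip3 the group means were 159 ± 54.1 CPM with biglycan and 167 ± 41.9 CPM without, and the estimate went from -0.066 ± 0.30 to 0.13. The errors of these 3 genes were wider than their estimates. Adm kept an estimate below 0, -0.35 ± 0.50 with all libraries and -0.084 without that one. Ldha went from -0.11 ± 0.086 to -0.032, and Slc2a1 from -0.013 ± 0.16 to 0.11, a change of sign. Pkm had the narrowest error of the members, -0.10 ± 0.064, and was at -0.047 without that library.

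Without BGN replicate 5, 22 of 33 members had estimates above 0, against 48.8% of all genes, and 20 changed sign; the median was 0.023 and the smallest adjusted p 0.883. Without both BGN replicate 5 and Control replicate 4, 27 of 33 were below 0 again, with a median of -0.054 and a smallest adjusted p of 0.747. The second setting was chosen after seeing the data. Leaving out Control replicate 2 alone brought the median to -0.035, with 11 members above and 22 below 0. It was -0.18 without BGN replicate 3 and also without Control replicate 4.

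**Figure D4:**
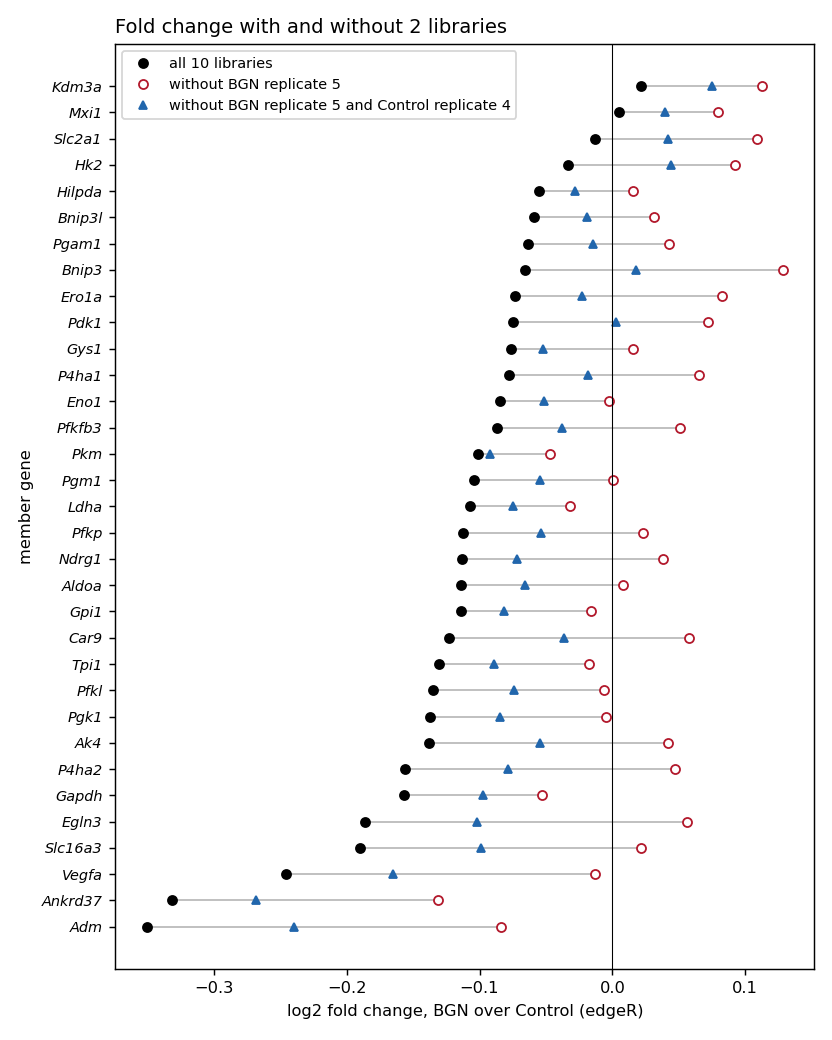
Log2 fold change (BGN over Control, edgeR) of each member with all 10 libraries, without BGN replicate 5, and without BGN replicate 5 and Control replicate 4. Estimates lie below 0 for 31 of 33 genes with all libraries, for 11 without BGN replicate 5 and for 27 without both.

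HIF targets outside the list had the same libraries at either end, over a smaller range. Of 30 further reported targets 29 were tested, 0 passed in either direction, and their mean deviation was -0.46 in BGN replicate 5, -0.19 in Control replicate 4, 0.18 in BGN replicate 3 and 0.21 in Control replicate 2. BGN replicate 5 was the lowest library for 23 of 29, against 12.3% of all genes tested. Nothing is read from this count, since this list too was chosen with earlier results known. Between groups 10 estimates were above and 19 below 0, against 52% of all genes below 0. Ndufa4l2, a mitochondrial protein gene strongly induced by HIF, had 35.9, 27.3, 39.8, 26.7 and 9.02 CPM in BGN and 33.1, 39.9, 29.8, 19.5 and 28.6 CPM in Control. Loxl2, a lysyl oxidase-like enzyme that modifies collagen, had 12.1, 8.92, 13.4, 7.14 and 2.69 CPM and 7.70, 14.2, 10.2, 4.66 and 6.93 CPM. Both were picked as the farthest of this list in BGN replicate 5, where they were lowest, and both were next lowest in Control replicate 4. Trf, the transferrin gene, was at 804 CPM in BGN replicate 5 and 1129 to 1711 CPM elsewhere, highest in Control replicate 5. Plin2, a lipid droplet coat gene, ranged only from 286 to 375 CPM.

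Genes of the HIF machinery went both ways in BGN replicate 5, from -0.68 to 0.23 on the log2 scale relative to the median of the other 9 libraries. Among 15 genes for HIF subunits, oxygen sensors, coactivators and the VHL ligase 14 were tested, 0 passed in either direction, with 5 estimates above and 9 below 0 (median -0.018). Their mean deviation ran from -0.10 to 0.046 over the 9 other libraries and was -0.064 in BGN replicate 5. Hif1a stood at 266, 272, 285, 262 and 243 CPM in BGN and 258, 267, 263, 258 and 230.0 CPM in Control. Its protein is controlled mainly by degradation, which RNA counts do not show. Ep300, a coactivator of HIF, averaged 153 ± 9.75 CPM with and 143 ± 8.07 CPM without biglycan. Egln1 was the gene of this list farthest from the others in BGN replicate 5, at 90.5 CPM against 116 to 163 CPM. It was next lowest in Control replicate 4 and highest in Control replicate 2. Arnt2, a relative of ARNT with few counts, was at 0.729 CPM against 0.438 to 1.84 CPM.

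Glycolytic relatives and neighbouring pathways spanned smaller ranges than the members. The members were listed with the low level of BGN replicate 5 known, so nothing is read from this contrast. Of 24 other isozymes and carriers 19 were tested, 10 above and 9 below 0 between groups, and their deviation was -0.065 in BGN replicate 5. That mean hides opposite moves: relative to the median of the other 9 libraries, single genes ran from -1.09 to 0.38 on the log2 scale. The 24 genes of pyruvate entry and the TCA cycle were at 0.053 there, and the 7 pentose phosphate genes at 0.029. Between groups, 8 of the TCA list's estimates were above and 16 below 0, as were 2 and 5 of the pentose phosphate list, and 0 genes passed in either direction in all 3 lists. Pdha1, the pyruvate dehydrogenase subunit, stayed within 311 to 342 CPM in the 9 libraries and was at 331 CPM in BGN replicate 5. Tkt, a transketolase, was at 362 CPM against 366 to 396 CPM. The 10 ATF4 stress targets had a deviation of -0.037 in that library, with 3 estimates above and 7 below 0 between groups and 0 past the test. The 5 glucose-sensing genes had a deviation of -0.33 there, against -0.12 to 0.22 in the other 9 libraries. Of these genes 0 had estimates above and 5 below 0 between groups, and 0 passed. Txnip, an inhibitor of glucose uptake, was at 259.6 CPM in BGN replicate 5 against 303 to 385 CPM. Mlxipl, which encodes the glucose-responsive factor ChREBP, had few counts, at 0.319 CPM against 0.532 to 1.69 CPM.

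Cell cycle genes had their highest levels where the members were low. Their mean deviation over 12 genes was 0.16 in BGN replicate 5 and 0.17 in Control replicate 4, against -0.15 in BGN replicate 3, -0.094 in Control replicate 2 and -0.093 in BGN replicate 1. Mcm5, a subunit of the replicative helicase, had 69.0, 66.5, 68.6, 79.4 and 95.03 CPM in BGN and 73.8, 69.9, 75.5, 86.9 and 83.5 CPM in Control. Mki67, a proliferation marker, was at 529, 581, 492, 534 and 577 CPM and 495, 495, 546, 588 and 485 CPM in the same order, and did not set BGN replicate 5 apart. Of the 12 genes 2 had estimates above and 10 below 0 between groups, and 0 passed in either direction. The part of proliferation in the levels of the members was not tested.

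**Figure D5:**
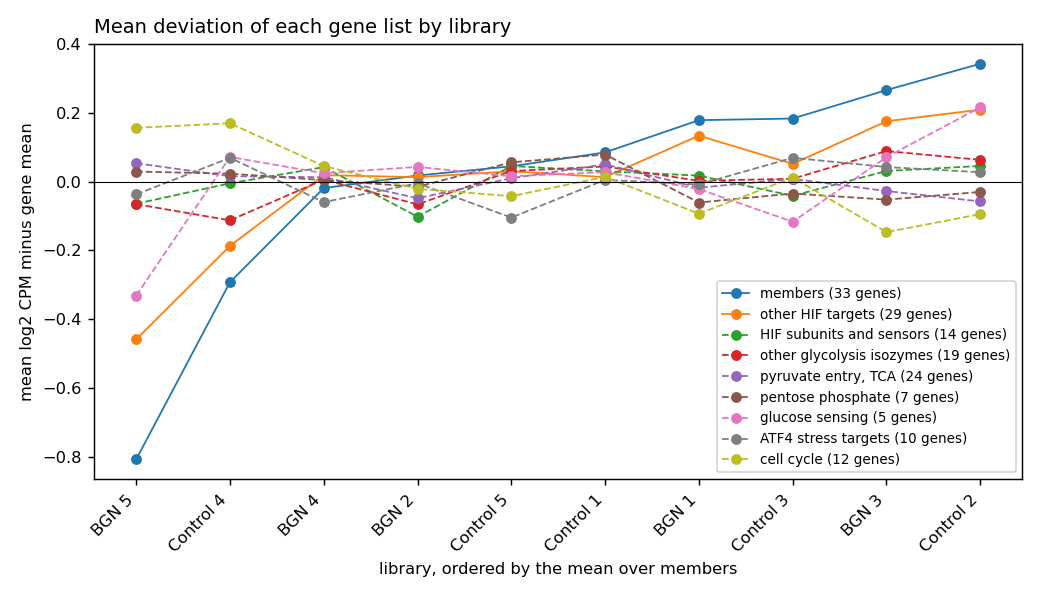
Mean log2 CPM minus gene mean in each library for the members and 8 other lists, with libraries ordered by the members. Members run from -0.81 to 0.34 and other HIF targets from -0.46 to 0.21, while HIF subunits, other isozymes, TCA cycle and pentose phosphate genes stay between -0.11 and 0.089. Glucose-sensing genes run from -0.33 to 0.22, ATF4 targets from -0.10 to 0.069, and cell cycle genes are highest at the left.

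Outside the list, the gene nearest to the members' average was Bsg, which encodes basigin, the partner that carries monocarboxylate carriers such as MCT4 to the cell surface. Nearness was the mean absolute difference between a gene's centred log2 CPM and the members' mean over the 10 libraries, computed for 11932 genes averaging 50 counts or more. Bsg differed by 0.0288 (log2), where the median over all genes was 0.248. It had 1222, 1066, 1319, 1038 and 618 CPM in BGN and 1232, 1353, 1214, 853 and 1105 CPM in Control. Next came Ptges, a prostaglandin E synthase, at 0.0438, and Vldlr and Fam162a, both among the further HIF targets, at 0.0470 and 0.0499. F3, the tissue factor gene, the glycogen phosphorylase gene Pygl, the transcriptional repressor gene Bhlhe40, the malic enzyme gene Me1, Egln1 and the sulfhydryl oxidase gene Qsox1 completed the nearest 10.

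The ranking was repeated without BGN replicate 5. Over the other 9 libraries 7 of the 10 nearest genes were shared with the first ranking. The first ranking also used those 9 libraries, so this overlap was partly built in. Ptges was nearest at 0.0298 and Bsg next at 0.0311 (median over all genes 0.163). Vsir, an immune checkpoint receptor gene, Otud1, a deubiquitinase gene, and Lonrf1 took the other places. Ptges had 143, 129.7, 164, 131 and 66.4 CPM in BGN replicates 1 to 5 and 140.4, 165, 146, 102 and 135 CPM in Control replicates 1 to 5. These genes were picked for their likeness to the members, so their values describe the libraries and add no evidence.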

How the data were processed

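Poly-A RNA of 10 samples was sequenced, 5 with and 5 without biglycan protein. The authors deposited unnormalized counts of reads for each gene symbol. Per the submitters' processing notes, cutadapt 1.9.1 and FastQC, HISAT2 2.2.1, the GRCm39 build, HTSeq and DESeq2 were used. For the annotation release and the strand setting, not given in the sources used here, nothing was assumed: overlapping, antisense and near-identical genes may not be separable.

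The main test was edgeR's quasi-likelihood F test (edgeR 4.0.16 under R 4.3.3, robust estimation), with group as the model's only term, after filterByExpr and TMM scaling. Adjusted p-values follow Benjamini and Hochberg over 14415 genes. Log2 CPM used a prior count of 2. The SE came from the fold change and its F statistic. All pairs of libraries differed by more than sampling noise (chi-square per degree of freedom at least 2.43). Exon lengths came from GENCODE by symbol, and promoter windows from RefSeq GRCm38.p6. The edgeR step was tested on simulated data.

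The members and lists were chosen with earlier results of these data known. Named genes were all members, from each other list the 2 most abundant and the 2 farthest in BGN replicate 5 (of which those that a result turns on are given), and the 10 nearest genes in each ranking. Alternatives were other scalings and filters, DESeq2 1.42.0, a replicate block, another prior count and leaving out single libraries; leaving out BGN replicate 5 with Control replicate 4 was added after seeing the data.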

Additional observations from a re-analysis of the deposited data

Results flagged for a closer look

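In 12 of 66 groups of 5 libraries, 1 library stood far from the rest in CPM: its gap to the nearest library, as a share of the group's whole range, passed 0.71. Chance flags about 1 in 20 groups, but the 33 genes vary together, so these are not separate events. The low level of BGN replicate 5 was known when the list was made, and flags among all other genes were not counted. Nothing is read from the number of flags. BGN replicate 5 was the library far from the rest for 9 members. The share was 0.857 for Pgam1, 0.798 for Pdk1, 0.796 for Kdm3a, 0.795 for Tpi1 and 0.777 for Pfkl. It was 0.753 for P4ha1, 0.744 for Ldha, 0.738 for Pgm1 and 0.725 for Gapdh. Control replicate 4 was that library for 3 members, with 0.785 for Eno1, 0.783 for Aldoa and 0.737 for Pgk1. In all 12 cases the library was the lowest of its group. Vegfa, Adm and Egln3, which lay farthest down in BGN replicate 5, were not among them, since their other libraries were also widely spread.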

How the results depend on the processing

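No member passed under any of the 17 alternative fits. Without a filter on low counts 3 genes outside the list passed, 1 higher and 2 lower; under the other alternatives 0 did. The members' median log2 fold change stayed between -0.112 and -0.106 under other scalings, filters and DESeq2, and ran from -0.18 to 0.023 when single libraries were left out, above 0 only without BGN replicate 5. With the replicate block it was -0.11 and 0 genes passed. The numbers were not taken as pairs, because the labels do not say what a shared replicate number means. Deviations of same-numbered libraries had r from -0.020 to 0.20, and 1 of 5 BGN libraries correlated best with its own number. These values cannot settle whether the libraries were paired. With other scalings or a prior count of 0.5 the mean deviation of the members in BGN replicate 5 lay between -0.81 and -0.80, all 33 were lowest there, and their median SD over the other libraries was 0.160 to 0.161. Without BGN replicate 5, 30 members were lowest in Control replicate 4. The share of member genes with the promoter letters at any listed start was 71.0% for ACGTG alone, against 29.0% of tested genes and 21.8% of all genes. The SE of a member's log2 fold change ran from 0.064 for Pkm to 0.50 for Adm. The simulated data used genes drawn at random, and what size of difference could be detected for the members was not tested.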
